A study of Sus scrofa with 8 samples.

Results

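Slit and netrin proteins are secreted guidance cues that steer growing axons and migrating cells. Slits act through the ROBO receptors and usually repel, whereas netrin-1 attracts through DCC and repels through receptors of the UNC5 family, alone or together with DCC. Both systems are best known from the midline of the developing nervous system, and they also act in blood vessels, in epithelia and in cell survival, where DCC and UNC5 proteins are known as dependence receptors.

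The genes described are 4 ligand genes (SLIT1, SLIT2, SLIT3 and NTN1) and 6 receptor genes (ROBO1, ROBO2, UNC5B, UNC5C, UNC5D and DCC). They were found in the count table by their pig Ensembl gene names, and each of the 10 symbols stood on a single identifier among 24358 genes. They were compared between IRF-1 overexpressing and control porcine induced pluripotent stem cells (piPSCs) in 4 RNA-seq libraries. The question of the comparison was how raised IRF-1, an interferon regulatory transcription factor, changes gene expression in these cells.

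The cells were DOX-hLIF-2i piPSCs, made from domestic pig embryonic fibroblasts with an OCT4-tdTomato reporter by the lentiviral vectors FUW-OSKM and FUW-M2rtTA, so that doxycycline drives the reprogramming factors. Both groups were kept with doxycycline, human and porcine LIF, CHIR99021 and PD0325901 in N2/B27 medium according to the methods, whereas the sample labels name an LCDMV culture. The overexpressing cells (replicates 1 and 3) received PB-CAG-IRF1-Flag with a piggyBac transposase plasmid, and the control cells (replicates 6 and 8) received PB-CAG-Flag, for which no transposase is named. The CAG promoter drives the insert constitutively, both groups were selected with puromycin, and attached feeder cells were left behind before RNA was taken. The genotype in the sample labels is IRF-1 overexpression for all 4 libraries, so the groups follow a figure legend of the study. Nothing states that the replicates were separate cultures or which of the established cell lines they came from, so the p-values measure only the spread between these libraries.

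The reads counted on genes numbered 24923319 and 20858333 in overexpressing replicates 1 and 3, and 15925429 and 17097669 in control replicates 6 and 8. Levels of a gene are given as CPM, its counts scaled to library totals that were adjusted by TMM factors. A count of 3, taken as the floor, was worth between 0.121 and 0.192 CPM. IRF1 itself (ENSSSCG00000014277) had 330 and 264 CPM in the overexpressing replicates and 3.52 and 3.20 CPM in the controls. Its groups were far apart and lay on the side that the legend gives.

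The pluripotent label was checked against its markers. Of 12 listed genes, 8 had a named identifier, and POU5F1, SOX2, SALL4 and TDGF1 were not analysed here. The most abundant was DNMT3B, a de novo DNA methyltransferase, with 1034 and 1005 CPM in the overexpressing cells and 694 and 996 CPM in the controls. NANOG had between 5 and 11 counts in each of the 4 libraries, so a defining transcript was close to the floor in both groups. The summed level of the list was 1466 and 1500 CPM against 1728 and 1902 CPM, with LIN28A, CDH1 and ESRRB called lower and none of the 7 tested genes called higher (median log2 fold change -0.31).

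Across the transcriptome, a call needed a Benjamini-Hochberg adjusted p below 0.05 in edgeR's quasi-likelihood test together with a log2 difference of 1 or more in either direction. By this rule 9 of the 10 guidance genes were called, against 19.3% of the 13250 genes tested. There were 6 called higher in the overexpressing cells (8.61% of all tested genes were) and 3 called lower (10.6% of all tested genes were). All 10 passed the filter on low counts. DCC, with 1 and 5 counts in the controls, did so through the overexpressing libraries alone, so it could hardly have been called lower. The median log2 fold change was -0.19 for the 4 ligands and 1.36 for the 6 receptors, beside 0.00 for all tested genes. The ligand median ranged from -0.36 to 0.02 with a library left out, changing sign without control replicate 6, and the receptor median from 0.86 without overexpressing replicate 1 to 1.90 without control replicate 8. These genes were chosen with earlier results known, so the shares describe them and test nothing. A change in RNA per cell and a change in the number of cells of one type cannot be told apart in such bulk samples.

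**Figure D1:**
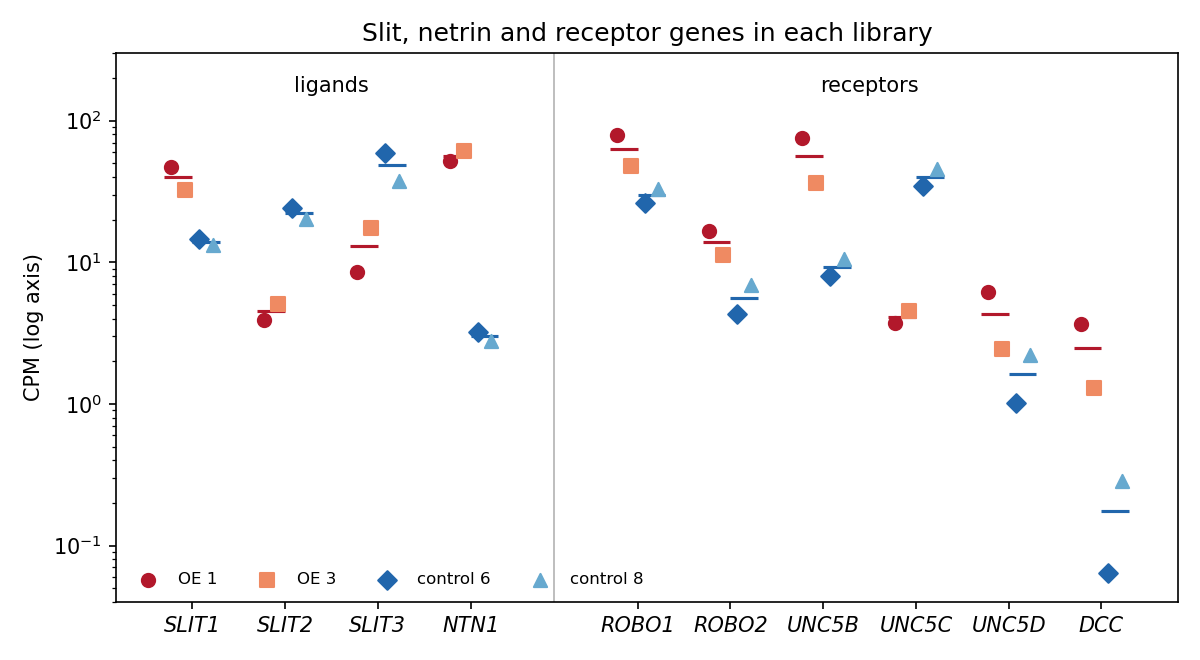
Level of each guidance gene in CPM on a log axis, with 1 point per library and horizontal lines at the group means (OE, IRF-1 overexpressing). The groups of NTN1 lie furthest apart among the ligands, at 52.1 and 61.1 CPM against 3.20 and 2.80 CPM, and the control points of DCC lie lowest of all.

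Among the ligands, NTN1 and SLIT1 were higher and SLIT2 and SLIT3 were lower in the overexpressing cells. NTN1 encodes netrin-1, the secreted cue for DCC and UNC5 receptors. NTN1 (ENSSSCG00000017993) had 52.1 and 61.1 CPM in overexpressing replicates 1 and 3, and 3.20 and 2.80 CPM in control replicates 6 and 8. Both overexpressing libraries were high, both controls were low, and the replicates of each group were close to each other. The means were 56.6 ± 6.38 CPM (SD, n = 2) and 3 ± 0.281 CPM (SD, n = 2), an 18.9-fold difference. The log2 fold change was 4.24 (standard error 0.21, edgeR adjusted p = 9.79e-05).

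SLIT1 encodes a large secreted ligand of the ROBO receptors that is known mainly from the nervous system. SLIT1 (ENSSSCG00000010512) had 47.1 and 32.6 CPM in the overexpressing cells and 14.5 and 13.3 CPM in the controls. Both overexpressing libraries were above both controls, and replicate 1 was 1.44-fold above replicate 3. Its log2 fold change was 1.52 (standard error 0.222, edgeR adjusted p = 0.00242).

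SLIT2 and SLIT3, the other ligands of the family, went the opposite way. SLIT2 (ENSSSCG00000008749) had 3.94 and 5.09 CPM in the overexpressing cells and 24.2 and 20.2 CPM in the controls, and its log2 fold change was -2.30 (standard error 0.25, edgeR adjusted p = 8.73e-04). SLIT3 (ENSSSCG00000017012) had 8.53 and 17.5 CPM against 59.2 and 37.7 CPM, and its log2 fold change was -1.90 (standard error 0.356, edgeR adjusted p = 0.00672). Neither gene's groups overlapped, and the libraries of a group differed more for SLIT3 than for SLIT2. With a library left out, the log2 fold change of SLIT3 ranged from -2.50 (without overexpressing replicate 3) to -1.45 (without overexpressing replicate 1).

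Among the receptors, UNC5B, DCC, ROBO1 and ROBO2 were higher, UNC5C was lower and UNC5D was not called. UNC5B is a netrin receptor known from vessel guidance and as a target of p53. UNC5B (ENSSSCG00000010276) had 75.9 and 36.5 CPM in the overexpressing cells and 8.06 and 10.6 CPM in the controls. The groups did not overlap, although overexpressing replicate 1 was 2.08-fold above replicate 3. The log2 fold change was 2.59 (standard error 0.352, edgeR adjusted p = 0.00181), and it was 1.98 without overexpressing replicate 1.

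UNC5C, a paralog that mediates repulsion by netrin-1, showed the reverse pattern. UNC5C (ENSSSCG00000021874) had 3.70 and 4.56 CPM in the overexpressing cells and 34.7 and 45.6 CPM in the controls, so the controls were high. The log2 fold change was -3.28 (standard error 0.239, edgeR adjusted p = 2.41e-04), a fitted difference of 9.73-fold. UNC5D (ENSSSCG00000015830), a further family member, had 6.15 and 2.45 CPM against 1.02 and 2.23 CPM. Its groups did not overlap, but overexpressing replicate 3 and control replicate 8 were close. The log2 fold change was 1.40 (standard error 0.567, edgeR adjusted p = 0.105). Without the low-count filter UNC5D was called, with an adjusted p of 0.011 in edgeR. It was also called without overexpressing replicate 3 (log2 fold change 1.91) and without control replicate 8 (2.08), while without overexpressing replicate 1 the value was 0.59. The adjusted p ranged from 0.011 to 0.134 over the other scalings, filters and tools, and from 0.0358 to 0.627 with a library left out.

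DCC, the receptor through which netrin-1 attracts, had the lowest mean level per exon length of the 10. DCC (ENSSSCG00000040836) had 91 and 27 counts in overexpressing replicates 1 and 3, and 1 and 5 counts in control replicates 6 and 8. In CPM these were 3.66 and 1.30 against 0.064 and 0.286, so the controls were near the floor and the groups did not overlap. Summed over libraries, 118 counts stood against 6, a ratio of 14.2 per counted read with an exact 95% interval of 6.33 to 39.4 that covers counting error only. The log2 fold change was 3.75 (standard error 0.81, edgeR adjusted p = 0.0117). It was 2.82 without overexpressing replicate 1, where DCC was no longer called, 3.10 without control replicate 6 and 5.17 without control replicate 8. The adjusted p in edgeR ranged from 0.00407 to 0.0923 with a library left out.

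ROBO1 and ROBO2 are transmembrane receptors for Slit proteins. ROBO1 (ENSSSCG00000012001) had 78.8 and 47.5 CPM in the overexpressing cells and 26.4 and 33.0 CPM in the controls, and its log2 fold change was 1.09 (standard error 0.252, edgeR adjusted p = 0.0154). ROBO2 (ENSSSCG00000012002) had 16.5 and 11.3 CPM against 4.29 and 6.86 CPM, and its log2 fold change was 1.32 (standard error 0.327, edgeR adjusted p = 0.02). For both genes the overexpressing libraries were above the controls, with replicate 1 the higher. Neither was called without overexpressing replicate 1, where the log2 fold change was 0.69 for ROBO1 and 1.03 for ROBO2, and ROBO1 was not called without control replicate 6 either (0.94). The edgeR adjusted p with a library left out ranged from 0.00241 to 0.104 for ROBO1 and from 0.0044 to 0.143 for ROBO2.

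When the change was tested against the size limit itself with glmTreat in edgeR, NTN1, UNC5B and DCC were called higher and SLIT2 and UNC5C lower. SLIT1 (adjusted p = 0.0604), SLIT3 (0.0558), ROBO2 (0.385) and ROBO1 (0.79) were not called by that test.

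**Figure D2:**
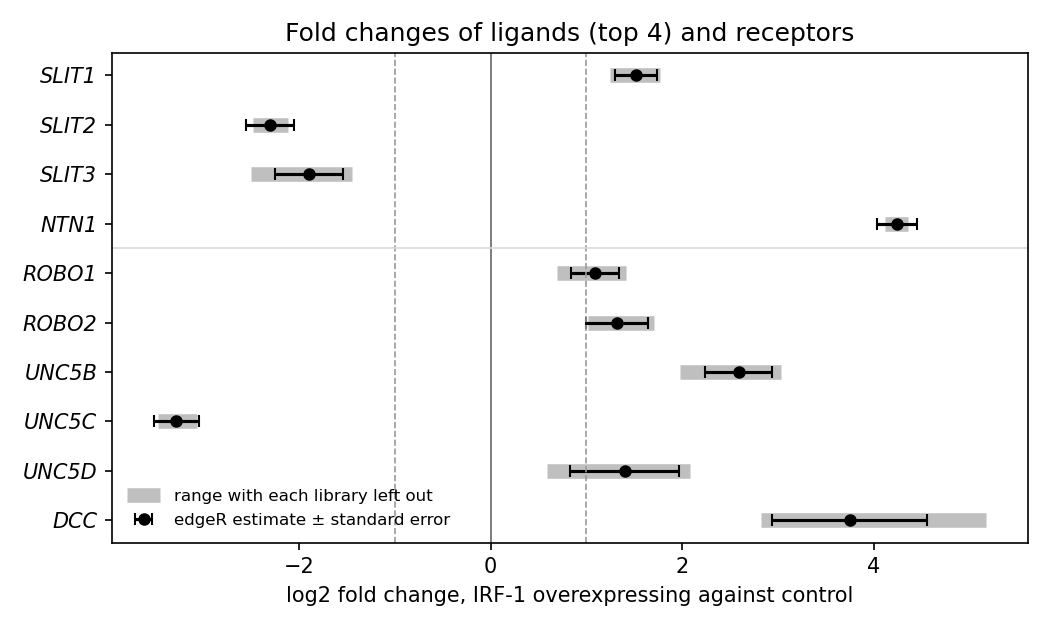
Log2 fold change of each guidance gene, with overexpressing cells against controls on the horizontal axis, points at the edgeR estimate, black bars of 1 standard error and gray bars over the values with each library left out in turn; dashed lines mark a change of 1. The values run from -3.28 for UNC5C to 4.24 for NTN1, and the gray bar of DCC is the widest.

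Replicates of a group differed in one direction for most receptors, in both groups. UNC5B, UNC5D, DCC, ROBO1 and ROBO2 were higher in overexpressing replicate 1 than in replicate 3, by between 1.46-fold for ROBO2 and 2.82-fold for DCC. UNC5C was 0.811 times as high in replicate 1. In the controls all 6 receptors were higher in replicate 8 than in replicate 6, by between 1.25-fold for ROBO1 and 4.47-fold for DCC. The summed level of neuron markers was 843 CPM in overexpressing replicate 1 and 426 CPM in replicate 3, against 202 and 233 CPM in the controls. Of 12 neuron genes listed, 11 were named and 10 tested, with 6 called higher, none called lower and a median log2 fold change of 1.63. The most abundant, STMN2, which encodes a neuronal microtubule regulator, had 327 and 155 CPM against 72.7 and 76.2 CPM, while RBFOX3, which marks mature neurons, had between 0 and 6 counts in each library. Of the 11 named neuron genes, 9 were higher in overexpressing replicate 1 than in replicate 3. In the controls 6 of the 11 were higher in replicate 8 than in replicate 6, beside all 6 receptors, and the summed marker level was also higher in replicate 8. Most of the gap between the overexpressing sums came from STMN2 and from the tubulin gene TUBB3, with 351 and 117 CPM. The exceptions in the overexpressing cells were MAP2 and NEFL, which made up most of the gap between the control sums. MAP2 had 55.7 and 78.1 CPM against 96.1 and 115 CPM (log2 fold change -0.66, edgeR adjusted p = 0.0375), and NEFL had 7.48 and 12 CPM against 4.54 and 13.9 CPM. The share of all tested genes that differed in these directions was not computed, so the counts do not set receptors or neuron genes apart. The part of such cells or genes in the receptor values was not tested.

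To compare genes with each other, levels were divided by exon length (FPKM, the CPM per kilobase of exon). In the controls SLIT3 was the leading Slit gene, with 12.8 and 8.12 FPKM, followed by SLIT2 with 5.63 and 4.70 FPKM and SLIT1 with 1.76 and 1.62 FPKM. In the overexpressing cells SLIT1 was first, with 5.74 and 3.98 FPKM, above SLIT3 with 1.84 and 3.77 FPKM and SLIT2 with 0.918 and 1.19 FPKM. SLIT1 and SLIT3 were close in overexpressing replicate 3 and apart in replicate 1.

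The share of SLIT1 in the summed Slit level was 67.6% and 44.5% in the overexpressing cells and 8.75% and 11.2% in the controls. The summed Slit level itself was 8.50 and 8.93 FPKM against 20.1 and 14.4 FPKM, lower in both overexpressing libraries. The log2 ratio of SLIT1 to SLIT3 was 1.64 and 0.08 in the overexpressing cells and -2.86 and -2.32 in the controls. The difference of the means was 3.45 (exact two-sided permutation p = 0.333, the smallest that 2 libraries against 2 can give).

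In the UNC5 family the leading gene also differed between the groups. UNC5B made up 86.5% and 79.3% of the summed UNC5 level in the overexpressing cells and 14.1% and 13.9% in the controls. UNC5C made up 5.72% and 13.5% against 82.2% and 81.8%. The sum over UNC5A, UNC5B, UNC5C and UNC5D was 22.0 and 11.5 FPKM against 14.4 and 19.0 FPKM, so its groups overlapped. The log2 ratio of UNC5B to UNC5C, which was chosen after the values were seen, was 3.92 and 2.56 against -2.55 in both controls.

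The ROBO family kept its order. ROBO1 made up 72.6% and 69.9% of the summed ROBO level in the overexpressing cells and 76.8% and 72.9% in the controls; the shares of overexpressing replicate 1 and control replicate 8 were nearly equal. The summed level was 13.8 and 8.61 FPKM against 4.34 and 5.74 FPKM, higher in both overexpressing libraries. ROBO3 had at most 3 counts in a library, and ROBO4, the endothelial member, had 0 in all 4.

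Among the netrins, NTN1 made up 66.7% and 72.2% of the summed level in the overexpressing cells and 31.9% and 23.8% in the controls, where NTN4 was the leading gene. The summed netrin level was 29.3 and 31.7 FPKM against 3.75 and 4.41 FPKM. DCC was a small part of the sum of DCC and its relative NEO1 in every library, at 6.13% and 2.74% against 0.144% and 0.626%. NEO1, which binds netrins and repulsive guidance molecules, had 13.1 and 10.8 FPKM against 10.4 and 10.6 FPKM.

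**Figure D3:**
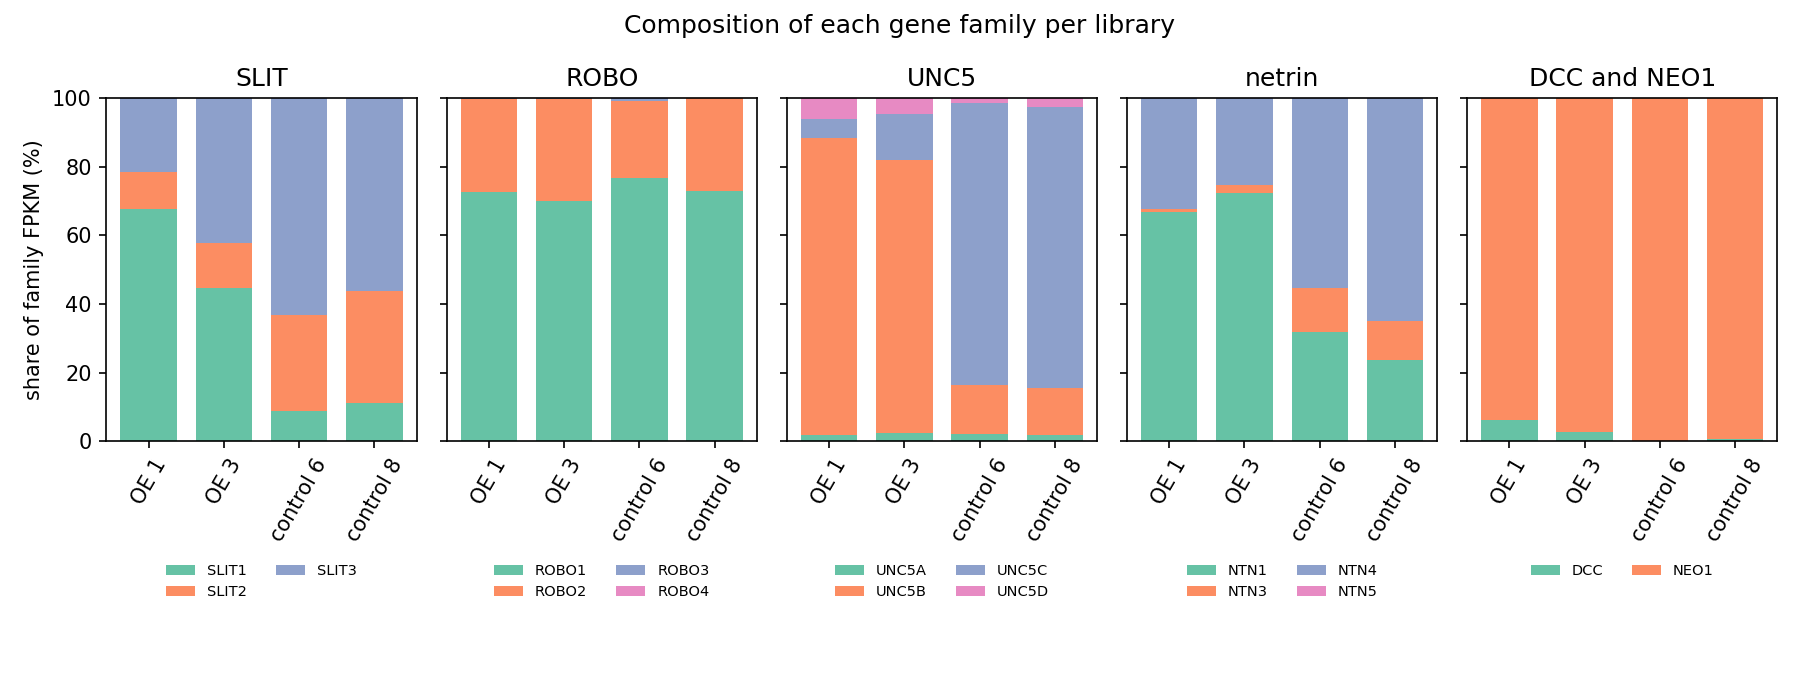
Share of each gene in the summed FPKM of its family, in percent, with 1 stacked bar per library (OE, IRF-1 overexpressing). The leading gene differs between the groups for SLIT, UNC5 and netrin, and not for ROBO or for DCC and NEO1.

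The other genes of both pathways were taken from 3 lists of 53 genes, of which 52 were named and 44 tested. By the same rule 4 were higher and 6 were lower, and the median over the 44 was -0.12 on the log2 scale. The share called was 22.7%, close to the 19.3% among all tested genes, so the counts do not set these lists apart. Among other ligands, 10 of 12 were tested, with 2 higher, 3 lower and a median of 0.14. Higher were NTN4, a netrin related to laminins, with 35.3 and 30.2 CPM against 7.74 and 10.7 CPM (log2 fold change 1.83, edgeR adjusted p = 0.00131), and FLRT2, an adhesion protein that binds UNC5 receptors (1.54). Lower were the repulsive guidance gene RGMA (-1.62), FLRT1 (-2.66) and FLRT3 (-2.69). FLRT3, which binds ROBO1 and UNC5 proteins, had 7.08 and 13.5 CPM against 72.5 and 59.7 CPM, the controls being high. NELL2, a ligand of ROBO3, had 156 and 177 CPM against 162 and 128 CPM, and its groups overlapped.

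Of 9 other receptors and binding partners, 4 were tested, with none higher, 1 lower and a median of -0.28. The lower gene was GPC1, a heparan sulfate proteoglycan that binds Slit, with 37.3 and 60 CPM against 137 and 114 CPM (log2 fold change -1.37, edgeR adjusted p = 0.00444). DAG1, the dystroglycan gene, had a log2 fold change of -0.65 (edgeR adjusted p = 0.0106), which is under the limit for size. NEO1 had a value of 0.18 (edgeR adjusted p = 0.405). DSCAM, a netrin receptor, had 0 counts in all 4 libraries.

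Of 32 intracellular partners, 31 were named and 30 tested, with 2 higher, 2 lower and a median of -0.16. SRGAP3, a GTPase-activating protein of the Slit-Robo pathway, had 76.0 and 53.6 CPM against 14.4 and 18.6 CPM (log2 fold change 1.97, edgeR adjusted p = 9.99e-04). TRIM67, a ubiquitin ligase that binds DCC, had 153 and 40 counts against 1 and 0, a ratio of 139 per counted read with an exact 95% interval of 24.7 to 5527 that covers counting error only and not the gap between the replicates. The fitted log2 fold change of TRIM67 was 6.80 (standard error 1.07, edgeR adjusted p = 0.00329). Lower were the adaptor NCK2 (-1.41) and the motor protein MYO10 (-1.15), which is known to carry DCC. MYO10 had 55.3 and 69.2 CPM against 135 and 141 CPM.

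The other 26 tested partners were not called. The effectors of actin remodelling EVL (log2 fold change 0.84), ENAH (-0.77), VASP (-0.75) and SRC (-0.83), the UNC5 partner MAGED1 (-0.86), the exchange factor SOS1 (-0.58) and the protease ADAM10 (-0.71) had an edgeR adjusted p between 0.00444 and 0.023, with a size under the limit. The GTPases RAC1 (-0.07), CDC42 (0.07) and RHOA (-0.29), and the kinases ABL1 (0.11), FYN (0.41), PTK2 (-0.43), PAK1 (-0.36), PAK2 (-0.26), PAK3 (0.05) and DAPK1 (0.26) had smaller log2 fold changes, as did NCK1 (0.05), DOCK1 (-0.33), TRIO (0.21), ARHGAP39 (0.36), CAP1 (-0.35) and PITPNA (-0.12). RAC1 had the highest level of the list per exon length, with 126 and 140 FPKM against 151 and 129 FPKM. Among the other pathway genes, exon bases were shared with a gene on the other strand by SRGAP1 (4645 bases), EVL (2947), CAP1 (1342), UNC5A (1092), ROBO3 and ROBO4 (355 with each other), PAK2 (21) and CDC42 (13), and with a gene on the same strand by ENAH (481) and DAG1 (291). The strand setting of the counting is not given in the sources used here, so these counts are less certain.

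Cell types in which these genes are known to act were examined by marker lists. The floor plate is the group of midline cells that secretes netrin-1. Of 10 floor plate genes, 6 were tested, with 1 higher, 2 lower and a median log2 fold change of 0.87, and the defining genes SHH and FOXA2 had 0 counts in all 4 libraries. The summed level was 82.3 and 83.0 CPM against 143 and 156 CPM. SPON1, which encodes a secreted matrix protein, was the most abundant, with 50.9 and 56.0 CPM against 120 and 135 CPM (-1.25), LMX1A was lower (-3.64) and NKX2-2 was higher (3.37). The summed level thus moved opposite to NTN1.

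Of 7 commissural neuron genes, 3 were tested, with BARHL2 and LHX2 higher, CNTN2 lower and a median of 2.73, and ATOH1, LHX9, BARHL1 and ROBO3 were at or under 3 counts in every library. The summed level was 17.9 and 21.7 CPM against 4.22 and 4.29 CPM. BARHL2, a homeodomain factor, made up most of it in the overexpressing cells, with 14.3 and 19.4 CPM against 0.512 and 0.114 CPM, and CNTN2, an axonal adhesion protein, made up most of it in the controls, with 1.13 and 1.01 CPM against 3.26 and 3.54 CPM. Of 11 neural progenitor genes, 10 were named and 7 tested, with NKX6-1 and PAX7 higher, NES, FABP7 and HES5 lower, a median of -1.37 and summed levels of 178 and 183 CPM against 249 and 195 CPM. NKX6-1, a ventral progenitor factor, was the most abundant, with 125 and 114 CPM against 59.1 and 50.3 CPM.

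Of 9 endothelial genes, 8 were named and 5 tested, with none higher, TEK and TIE1 lower and a median of -2.57. CDH5 had at most 1 count in a library, and ERG and ROBO4 had 0. The summed level was 3.82 and 7.40 CPM against 60.4 and 66.3 CPM. The receptor gene TEK made up most of it in each library, with 2.21 and 5.62 CPM against 54.7 and 62.1 CPM. Of 9 fibroblast or feeder genes, 8 were named and 5 tested, with COL1A2 higher, PDGFRB, DCN and COL1A1 lower, a median of -1.97 and summed levels of 267 and 215 CPM against 331 and 273 CPM. FBN1, the fibrillin gene, was the most abundant, with 123 and 127 CPM against 127 and 168 CPM, and LUM was at or under 3 counts in every library.

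Of 8 trophectoderm genes, 7 were named and 6 tested, with TFAP2A higher, KRT8, KRT18 and TFAP2C lower and a median of -1.44. The summed level was 310 and 1156 CPM in overexpressing replicates 1 and 3, against 15587 and 9548 CPM in the controls. KRT8, a simple epithelial keratin, made up most of it, with 250 and 1014 CPM against 12007 and 7485 CPM, and CDX2 had 0 counts in all 4 libraries. SLIT2, SLIT3 and UNC5C were also high in the controls, as was by definition every gene called lower (10.6% of all tested genes). Within the controls, replicate 8 was below replicate 6 for KRT8, SLIT2 and SLIT3 and above it for UNC5C. The part of any of these cell types in the guidance gene values was not tested.

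The guidance genes are long. In the Sscrofa11.1 build their spans in the count table ran from 85.2 kb for UNC5B (chromosome 14, 74120014 to 74205263) to 1002 kb for DCC (chromosome 1, 102080200 to 103082095), with a median of 207 kb beside 29.2 kb for all tested genes. NTN1 lies on chromosome 12 (54060573 to 54288675), SLIT1 on chromosome 14 (108445900 to 108624524), SLIT3 on chromosome 16 (55031214 to 55218043) and UNC5D on chromosome 15 (50201405 to 50460534). SLIT2 (14989795 to 15147974) and UNC5C (124364455 to 124527610), which were both lower, are far apart on chromosome 8. ROBO1 (175980910 to 176479481) and ROBO2 (177369577 to 177723151) lie on chromosome 13 on opposite strands with 890 kb and 2 further genes between them. None of the 10 shared an exon base with another gene of the table.

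The gene models of the table were shorter than the RefSeq spans of the same build for several members. The table covered 100% of the RefSeq span for SLIT1, 98.3% for NTN1 and 96.8% for UNC5B, but 63.9% for DCC, 44.1% for ROBO1, 42.7% for UNC5D, 42.4% for UNC5C, 40.4% for SLIT2, 27.9% for SLIT3 and 21.1% for ROBO2. Exon lengths were 8204 bases for SLIT1, 4293 for SLIT2 and 4639 for SLIT3, so the FPKM values and family shares, those of UNC5B and UNC5C included, rest on models of unequal completeness. A separate gene without a symbol, ENSSSCG00000029791, lies on the strand of SLIT2 inside its RefSeq span (14758534 to 14781878), where it also overlaps the span of another RefSeq gene, LOC110262064 (14778322 to 14789741). It had 21 and 10 counts in the overexpressing cells and 45 and 42 in the controls, low where SLIT2 was low (log2 fold change -1.97, edgeR adjusted p = 0.0174). Inside the RefSeq span of ROBO2, ENSSSCG00000012003 (177901509 to 177901871) had 42 and 22 counts against 1 and 6, high where ROBO2 was high (2.69, edgeR adjusted p = 0.0264). Whether these are missing exons of SLIT2 and ROBO2 was not tested.

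The nearest gene on each side of each member gave 20 flanking genes, of which 12 were tested and 4 called, beside 19.3% called among all tested genes. The number is too small to set the flanking genes apart. The 4 were the 2 genes inside the RefSeq spans of SLIT2 and ROBO2, ENSSSCG00000010277 beside UNC5B (log2 fold change 1.07) and PIK3R5 beside NTN1. PIK3R5, a regulatory subunit of phosphoinositide 3-kinase, lies 6040 bases before NTN1 and had 14 and 13 counts against 1 and 1. STX8, on the other side of NTN1 at 7862 bases, had 598 and 459 counts against 372 and 319 (log2 fold change 0.14, edgeR adjusted p = 0.656). BMPR1B, 8254 bases from UNC5C, had 386 and 244 counts against 94 and 161, and was not called (0.84, edgeR adjusted p = 0.0695).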

How the data were processed

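RNA was sequenced from 4 libraries of piPSCs, 2 per group. Reads were filtered by the authors (trim_galore) and aligned by HISAT2 to the Sscrofa11.1 build. The authors deposited whole-number counts per gene from featureCounts 1.6.4, together with the exon length of each gene. The methods also name htseq-count. The version of the gene annotation, strandedness and the handling of multi-mapped reads are not given in the sources used here. The ChIP-Seq libraries were not analysed here.

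Symbols for 14692 of 24358 identifiers came from a table of Ensembl gene names, and RefSeq spans from the same build. Counts were tested with edgeR 4.0.16 in R 4.3.3 (TMM, filterByExpr, quasi-likelihood test, Benjamini-Hochberg adjustment over 13250 genes). The standard error is the size of the log2 fold change divided by the square root of F. CPM used TMM library sizes, and FPKM divided CPM by the deposited exon length. Other values and plots came from scipy 1.17.1, numpy 2.4.6, pandas 2.3.3 and matplotlib 3.10.9 under Python 3.11.15.

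Named were the 10 members, IRF1, every gene of the other pathway lists that was called or had a mean of at least 20 CPM, the most abundant gene of each marker list and the called floor plate genes. Most abundant means the highest summed CPM. Flanking genes are named for their position, and other marker genes were chosen after their values were seen. The members and lists were chosen with earlier results of these data known. Alternatives were other scalings (RLE, upper quartile, library totals), other filters, DESeq2 1.42.0, limma-voom (limma 3.58.1), glmTreat, no fold change minimum, removal of 37 mitochondrial and the 10 most abundant genes, each library left out in turn and, for family shares, no division by exon length. Promoter and protein sequences were not analysed here.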

Additional observations from a re-analysis of the deposited data

How the results depend on the processing

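Each member kept its direction under every scaling, filter, tool and left-out library, and so did IRF1. Of 132 such fold changes, 125 stayed on the same side of the call, 4 lost it and 3 gained it. With glmTreat, which tests the change against the limit itself, 3 members were higher, 1 other pathway gene was lower, and 611 genes were higher and 603 lower in all. Without a fold change minimum, 13 other pathway genes were lower and 1842 genes were higher in all. Both follow from how the limit is applied. With a library left out, the number of members called higher ranged from 3 (without overexpressing replicate 1) to 7, genes called higher in all from 756 to 1156 and lower in all from 874 to 1548, and the median log2 fold change of the receptors from 0.86 to 1.90. The lowest of these came without overexpressing replicate 1, and the lone library was assumed to vary like the other group. The cause was not tested. The ligand median ranged from -0.36 to 0.02, above 0 without control replicate 6. Without division by exon length, the mean share of SLIT1 was 69.1% in the overexpressing cells and 16.7% in the controls (56% and 9.99% with it), that of SLIT2 in the overexpressing cells 7.92% (12%), that of ROBO2 18.3% and 15.5% (28.5% and 24.7%), and that of DCC 2.49% and 0.211% (4.44% and 0.385%). No paired analysis was possible because the groups share no replicate numbers. The control counts of DCC were 1 and 5, so its level there was measured from few reads.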
